A study of Mus musculus with 3 samples.

Results

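The small nucleolar RNA (snoRNA) and small Cajal body RNA (scaRNA) genes were described in cultured mouse neural stem cells, which divide and give rise to neurons and glia, after knockdown of Phf2. All rows of the deposited gene table whose symbol begins with Snora, Snord or Scarna were taken, which gave 104 of 16977 genes: 32 Snora, 63 Snord and 9 Scarna. The cells came from C57BL/6J mouse embryos (E12.5), were grown with EGF and FGF, and had been infected with a lentivirus. The virus carried a control short hairpin RNA (shControl, 1 library) or a hairpin against Phf2 (shPHF2, 2 libraries, replicates 1 and 2). No other genotype, agent or time enters the design, and the labels name a single shPHF2 group, so 2 different hairpins cannot be compared. PHF2 belongs to a family of histone demethylases and acts on methylated lysine 9 of histone H3.

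Most snoRNAs guide chemical modification of ribosomal RNA. Box C/D snoRNAs (Snord) pair with the target and place the methyltransferase fibrillarin, and box H/ACA snoRNAs (Snora) place the pseudouridine synthase dyskerin. The scaRNAs (Scarna) carry one or both kinds of box and act in Cajal bodies on the small nuclear RNAs of the spliceosome. In mammals most of these RNAs are cut out of introns of protein-coding or noncoding host genes rather than transcribed from promoters of their own. Their level can therefore depend on the transcription of the host, the processing of its introns and the core proteins that protect the released RNA.

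The following sequences belong to genes on which the results turn, and show the letters typical of each class where they were found. They are printed 5′ to 3′ in DNA letters from GENCODE M21 transcripts of the GRCm38 (mm10) build. Capitals mark TGATGA within the first 25 bases (letters of the C box) and CTGA within the last 15 bases (letters of the D box). In H/ACA genes, capitals mark ACA within the last 15 bases. Snora65, at chr2:32963291-32963420 on the plus strand in an intron of Rpl12, and Snora61, at chr4:132310240-132310369 on the plus strand and overlapping an exon of Snhg12, are H/ACA genes:
Snora65: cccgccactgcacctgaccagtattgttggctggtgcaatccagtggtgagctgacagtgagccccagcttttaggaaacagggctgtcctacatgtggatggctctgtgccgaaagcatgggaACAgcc
Snora61: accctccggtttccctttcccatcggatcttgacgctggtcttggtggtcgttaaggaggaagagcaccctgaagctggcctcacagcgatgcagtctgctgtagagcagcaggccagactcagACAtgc
Snord47 (chr1:161038082-161038158, plus strand, intron of Gas5), Snord53 (chr17:71640879-71640956, plus strand, intron of Wdr43) and Snord32a (chr7:45127382-45127464, minus strand, intron of Rpl13a) are short C/D genes:
Snord47: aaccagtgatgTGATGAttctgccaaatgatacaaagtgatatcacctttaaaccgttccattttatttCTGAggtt
Snord53: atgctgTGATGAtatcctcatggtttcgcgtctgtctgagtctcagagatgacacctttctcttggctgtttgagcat
Snord32a: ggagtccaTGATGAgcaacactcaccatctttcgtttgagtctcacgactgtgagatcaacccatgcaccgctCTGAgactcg
Snord17 (chr2:144265979-144266216, minus strand, intron of Snx5) and Scarna6 (chr1:87784556-87784820, plus strand, intron of Atg16l1) are long genes with C/D letters, and Scarna13 (chr12:105031075-105031349, minus strand, intron of Snhg10) is a long gene with an ACA end:
Snord17: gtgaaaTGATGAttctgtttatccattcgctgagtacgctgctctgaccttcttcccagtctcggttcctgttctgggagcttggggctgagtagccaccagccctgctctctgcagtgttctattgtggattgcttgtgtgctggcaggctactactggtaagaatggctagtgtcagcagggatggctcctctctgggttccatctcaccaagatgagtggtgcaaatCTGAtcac
Scarna6: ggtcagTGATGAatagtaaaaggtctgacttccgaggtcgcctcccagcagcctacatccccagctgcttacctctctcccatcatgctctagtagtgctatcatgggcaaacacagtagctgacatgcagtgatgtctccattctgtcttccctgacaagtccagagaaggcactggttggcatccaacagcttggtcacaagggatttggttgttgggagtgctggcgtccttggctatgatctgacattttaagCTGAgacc
Scarna13: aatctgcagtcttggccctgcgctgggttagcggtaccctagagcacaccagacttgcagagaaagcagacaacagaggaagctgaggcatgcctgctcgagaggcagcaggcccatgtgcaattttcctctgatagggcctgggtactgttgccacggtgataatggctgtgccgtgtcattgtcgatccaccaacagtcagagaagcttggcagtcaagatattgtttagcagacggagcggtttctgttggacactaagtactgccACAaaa

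The letters TGATGA stood in the first 25 bases of 38 of 63 Snord genes (60.3%) and of 0 of 32 Snora genes, against 0.912% of 12389 other GENCODE transcripts in the same range of length. CTGA stood in the last 15 bases of 56 Snord genes (88.9%), 2 Snora genes (6.25%) and 7.42% of the other transcripts. ACA stood in the last 15 bases of 30 Snora genes (93.8%), 9 Snord genes (14.3%) and 20.1% of the others. Among the 9 Scarna genes, 4 held TGATGA, 5 held CTGA and 5 held ACA. Only the strand of the transcript was searched, TGATGA and CTGA share the letters TGA, and a match is a run of letters rather than a tested site. The annotated genes were 64 to 414 bases long, with medians of 79 bases for Snord, 132.5 for Snora and 140 for Scarna.

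Values are read counts divided by a size factor for each library (normalised counts), given in the order shControl, shPHF2 replicate 1, shPHF2 replicate 2. The libraries held 32898139, 37171026 and 26302177 reads in genes. Phf2 itself stood at 2593, 985 and 714 (log2 fold change −1.63, SE 0.24, limma adjusted p = 0.0085), so both libraries labelled shPHF2 lay below the control. The summed neural stem cell markers, 8 of 8 in the table, were 320218, 332553 and 378880. Single markers went both ways: 4 had both shPHF2 values below the control and 3 had both above. Their median log2 fold change was −0.12, and 1 was called higher by limma, against 7.22% of all genes tested. Summed neuronal markers, 4 of 4, were 321, 348 and 491, with 2 below the control in both shPHF2 libraries, 1 above and a median of 0.08. Those of astrocytes, 2 of 2, were 1.99, 17.5 and 57.9, with Aqp4 at 0 in shControl. Sums of microglial (1 of 3 in the table), endothelial (2 of 2) and fibroblast (2 of 2) markers were at most 13.3 in any library. Within the oligodendrocyte lineage list Olig2 made up nearly all of sums of 29863, 24547 and 29267. In RNA from whole cultures, fewer cells of a type and less RNA per cell cannot be told apart, and whether these marker levels have a part in the values below was not tested.

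Together the 104 genes took 15519, 10943 and 12542 reads. That was 0.0472% of the reads in genes in shControl (Wilson 95% interval 0.0464% to 0.0479%), 0.0294% in shPHF2 replicate 1 (0.0289% to 0.0300%) and 0.0477% in replicate 2 (0.0469% to 0.0485%). The intervals cover counting error only. The summed share of replicate 1 thus lay below that of the control and the share of replicate 2 beside it, and the classes account for this unevenly. Snora genes took 0.0144%, 0.00716% and 0.0126%, and without Snora74a, the Snora gene with the most reads, 0.0134%, 0.00683% and 0.00854%. Snord genes took 0.0201%, 0.0136% and 0.0167%. Scarna genes took 0.0127%, 0.00869% and 0.0184%, so here replicate 2 lay above the control and replicate 1 below it. With 1 library against 2 no permutation test of a share could pass a threshold of 0.05.

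Gene by gene, most snoRNA genes stood lower in both shPHF2 libraries than in the control library. Of the 94 members whose mean normalised count in the 3 libraries was 10 or more, 77 (81.9%) had both shPHF2 values below shControl, 4 had both above and 13 had the control between them; over all 14148 genes tested, 41.8% had both below and 41.4% both above. The pattern held for 28 of 31 Snora genes and 47 of 56 Snord genes, and for 2 of 7 Scarna genes. The median log2 fold change was −0.72 over the members tested, −0.87 for Snora (range −1.50 to 0.20), −0.73 for Snord (−2.41 to 0.84) and 0.29 for Scarna (−0.63 to 0.57), beside −0.01 for all genes tested. Fold changes here are on the log2(value + 1) scale. In all, 66 of the 94 had a log2 fold change below −0.5, against 20.4% of all genes tested.

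**Figure D1:**
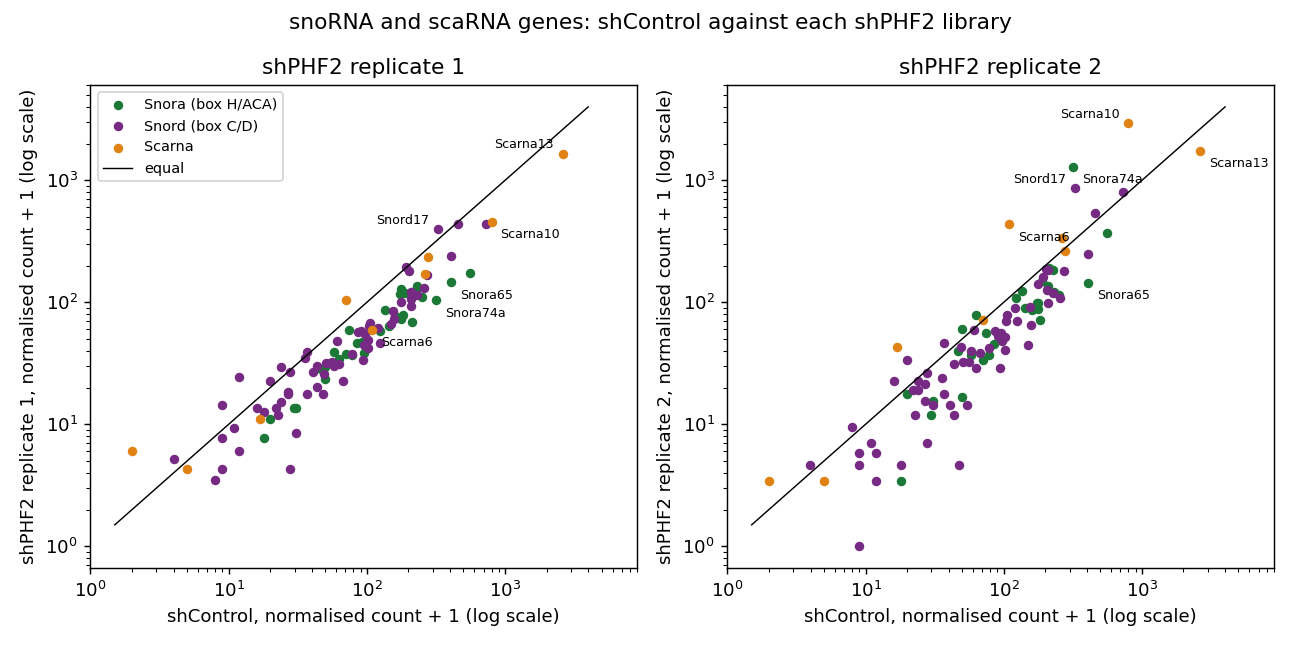
Normalised count plus 1 of each of the 104 genes in shControl (x axis, log scale) and in shPHF2 replicate 1 (left) or replicate 2 (right; y axes, log scale), with one point per gene coloured by class and the line of equal values. Most points lie under the line in both panels, while Scarna10, Snora74a, Scarna6 and Snord17 lie above it in replicate 2.

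Few of these differences passed a test for a single gene. One member, Snora65, was called lower by limma at an adjusted p under 0.05 and 0 were called higher, whereas 7.11% of all genes tested were called lower and 7.22% higher. By edgeR on the recovered reads 2 members, Snora65 and Scarna13, were called lower, against 8.06% of all genes tested. By DESeq2 1 was called lower (Snora65), and by either tool 0 were called higher. For the DESeq2 count and the counts called higher, no share over all genes by the same tool is given. At an unadjusted p under 0.05 in limma, 14 members were lower (6 Snora, 7 Snord and 1 Scarna) and 0 higher, against 15.4% lower and 15.8% higher over all genes tested. Most of those genes had more reads than the members, whose median normalised count was 64.3, beside 916 for all genes tested. A nearer background are the 3197 genes tested with a mean between 18.6 and 249, the 10th to 90th percentile of the members. Of these, 0.845% were called lower and 6.63% higher by limma, and at the unadjusted threshold 5.0% were lower and 15.7% higher. Both shPHF2 values lay below the control in 33.8% of them and above it in 44.5%. Beside these genes the members' 1 call is no shortfall, and 14 of 94 lower stands above and 0 higher below the background; no test of this was made. The median standard error of the log2 fold change was 0.53 over the members and 0.23 over all genes tested, and 60 of the 104 genes had under 100 reads in the control library. The authors' deposited table called 1 member at an adjusted p under 0.05, Snora65 (log2 fold change −1.50, adjusted p = 0.013), against 16.0% of genes with an adjusted p in it, and gave none for 35 members. Every fold change leans on the same single control library, so a difference between the hairpins and a peculiarity of that library cannot be told apart.

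Snora65, an H/ACA snoRNA, stood at 409 in shControl and at 145 and 143 in the shPHF2 libraries (144 ± 1.12, SD, n = 2), or 35.3% of the control. Both shPHF2 values lay far from the control and close to each other. The log2 fold change was −1.50 (SE 0.33, limma adjusted p = 0.025). The call was lost with no filter on low values (limma adjusted p = 0.145) and without the mean-variance trend (0.150). Its host Rpl12, which encodes a protein of the large ribosomal subunit, also fell, from 1066 to 574 and 521 (−0.96, limma adjusted p = 0.031).

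The other abundant Snora genes divided the shPHF2 libraries. Snora78, in an intron of Snhg9, stood at 557, 174 and 369, with both shPHF2 values under the control and replicate 2 above replicate 1 by 2.12-fold (limma adjusted p = 0.12). Snora7a, which overlaps an exon of Rpl32, stood at 226, 125 and 184.5 (−0.57, limma adjusted p = 0.36). Snora74a, known as U19, stood at 317, 102.5 and 1294. Its shPHF2 values lay on either side of the control and 12.6-fold apart, more than for any other member tested, and its log2 fold change of 0.20 had an SE of 1.15. Several less abundant H/ACA genes, chosen after their values were seen, had closely placed shPHF2 values. Snora17 stood at 251, 110 and 113 (limma adjusted p = 0.073). Snora61 stood at 181, 78.4 and 71.1 (limma adjusted p = 0.084). Snora75, in an intron of Ncl, the gene of nucleolin, stood at 77.7, 35.8 and 36.2. In each of these the shPHF2 libraries lay under the control and close together, without passing the test.

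**Figure D2:**
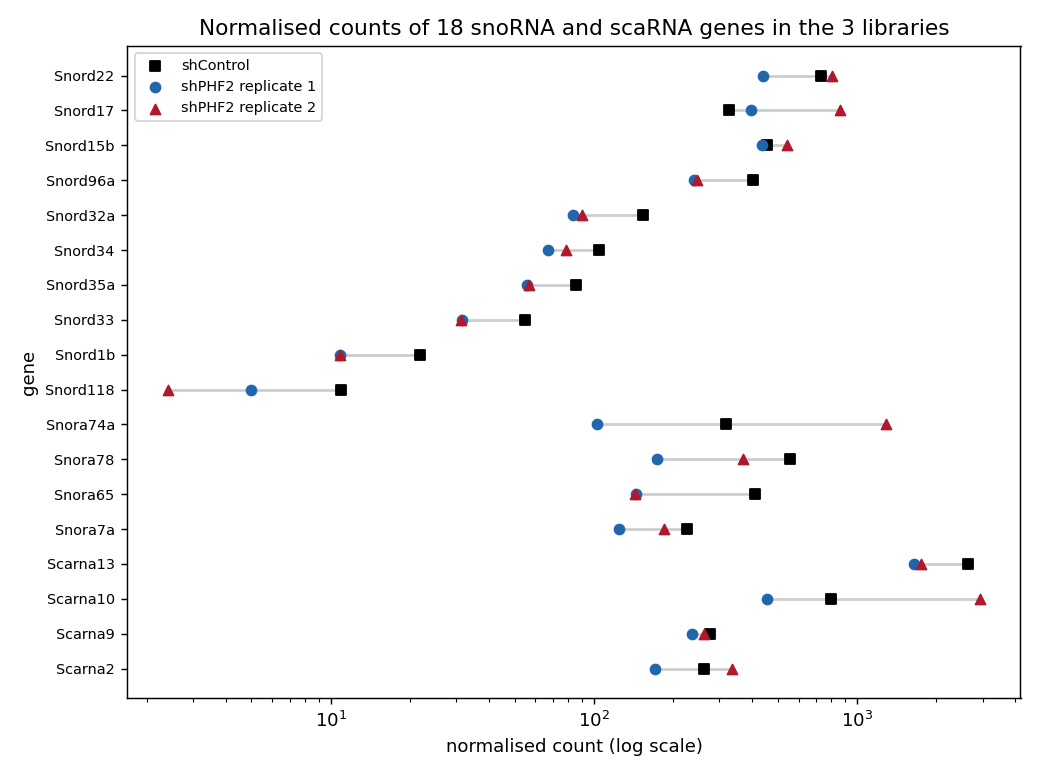
Normalised counts (x axis, log scale) of 18 genes named by rule in shControl (square), shPHF2 replicate 1 (circle) and shPHF2 replicate 2 (triangle), ordered by class and mean. For Snora65, Scarna13, Snord96a and the Rpl13a genes the shPHF2 symbols lie close together below the control, while for Snora74a and Scarna10 they lie far apart on either side of it.

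Among the C/D genes, Snord22 had the highest mean count per kb of gene length in its class (5221 over the 3 libraries). This snoRNA, U22, is known to be needed for maturation of 18S ribosomal RNA rather than for methylation. It stood at 732, 438 and 804, so the control lay between the shPHF2 libraries (−0.30, limma adjusted p = 0.61). Snord15b, in an intron of Rps3, stood at 456.5, 434 and 544, again with the control between them. Snord96a, in an intron of the Rack1 gene, stood at 404, 241 and 246, with both shPHF2 libraries under the control (−0.73, limma adjusted p = 0.14). Snord17 had both shPHF2 libraries above the control, at 326, 395 and 863 (0.84, SE 0.43, limma adjusted p = 0.22), while its host Snx5 stood at 7703, 4647 and 6132.

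Snord118 (U8), which is needed for maturation of the large subunit's ribosomal RNAs and guides no known methylation, had 11, 6 and 2 reads, or 11.0, 5.00 and 2.41 normalised. It was under the minimum mean and was not tested. U3, U13, U14, U17 and the imprinted Snord115 and Snord116 copies are not analysed here. The smallest difference between the shPHF2 libraries was that of Snord1b, at 21.9, 10.8 and 10.9, both under the control.

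Further C/D genes, chosen after their values were seen, also had both shPHF2 values well under the control. Snord47, hosted by the growth arrest transcript Gas5, stood at 256, 130 and 109 (−1.10, limma adjusted p = 0.086). Snord43, in an intron of Rpl3, stood at 148.5, 65.9 and 43.4 (−1.46, limma adjusted p = 0.092). Snord53, in an intron of the ribosome assembly gene Wdr43, stood at 92.7, 32.5 and 27.7 (−1.59, limma adjusted p = 0.10). The control exceeded both shPHF2 libraries for each of the 3. The most negative values came from genes with few reads: Snord82, in an intron of Ncl, at 46.8, 16.7 and 3.62 (−2.41, SE 1.05) and Snord110, in an intron of Nop56, at 26.9, 3.33 and 6.03 (−2.34, SE 1.08). Neither passed the test.

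Among the scaRNA genes the control lay between the shPHF2 libraries for 4 of the 7 tested. Scarna13 (U93), an H/ACA scaRNA, had the highest mean count per kb of all 104 genes (7313) and stood at 2636, 1651 and 1746, both shPHF2 libraries under the control (−0.63, SE 0.18, limma adjusted p = 0.053). Scarna10 (U85), which guides modification of the U5 small nuclear RNA, stood at 798, 457 and 2931. Its control lay between the shPHF2 libraries, which were 6.42-fold apart. Scarna2, a guide for the U2 small nuclear RNA, stood at 262, 170 and 336, with the control again between the others. Scarna9 stood at 276, 236 and 263, a difference smaller than the spread (−0.15, SE 0.31, limma adjusted p = 0.78). The median log2 fold change of the 7 Scarna genes tested was −0.62 in replicate 1 alone and 0.36 in replicate 2 alone, so its sign rests on which library is read. For Snora the medians were −0.98 and −0.81, and for Snord −0.76 and −0.74, negative in both.

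**Figure D3:**
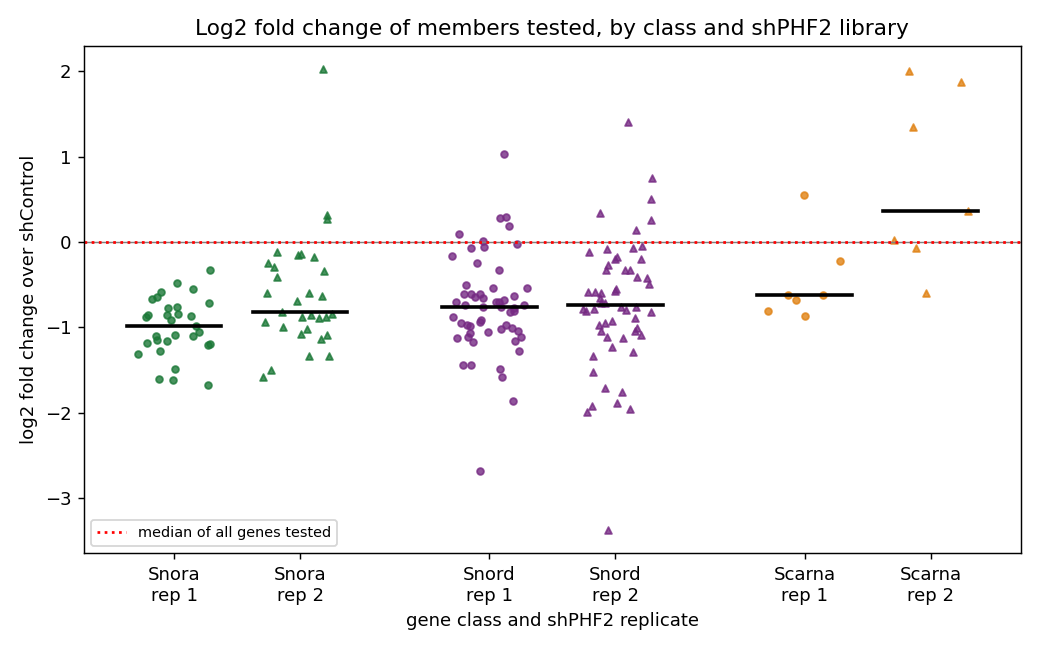
Log2 fold change over shControl (y axis) of the 94 members tested, by class, in shPHF2 replicate 1 (circles) and replicate 2 (triangles); black bars are class medians and the red dotted line is the median of all genes tested. The Snora and Snord medians are negative in both libraries, whereas the Scarna median is −0.62 in replicate 1 and 0.36 in replicate 2.

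The members whose replicate 2 exceeded replicate 1 by the most, Snora74a, Scarna6 and Scarna10, were long ones. Of the members tested, 6 were at least 190 bases long, a split chosen after their values were seen: Snora74a (196 bases), Snord17 (238), Scarna6 (265), Scarna13 (275), Scarna10 (325) and Scarna2 (414). The median log2 ratio of replicate 2 to replicate 1 was 1.90 for these 6 and 0.10 for the 88 shorter members. It was 0.01 for all genes tested, of which the middle 90% lay between −0.80 and 0.82. For the 3197 genes with a mean in the 10th to 90th percentile of the members, the middle 90% was wider, from −1.31 to 1.47. Scarna6 (U88), at 108, 58.4 and 435, had a log2 ratio of 2.88, Snora74a of 3.64 and Scarna10 of 2.68. Scarna13 was the exception, at 0.08. In all, 9 of the 94 members (5 Snora, 1 Snord, 3 Scarna) had replicate 2 above replicate 1 by more than 1 on the log2 scale. That held for 3.66% of all genes tested. It also held for 308 of the 3197 genes with a mean in the range of the members, a share near that of the members. Of these 9, 4 were at least 190 bases long and 5 were shorter, among them Scarna3a at 1.97. A further 5 members, all Snord, had replicate 2 lower by more than 1, against 3.31% of all genes tested and 283 of the 3197. Each of those Snord genes stood at 52.8 or less in the control. Across the 94 members the log2 ratio and the length had a Pearson r of 0.50 and a Spearman rho of 0.29, a description of members that share the same pair of libraries.

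**Figure D4:**
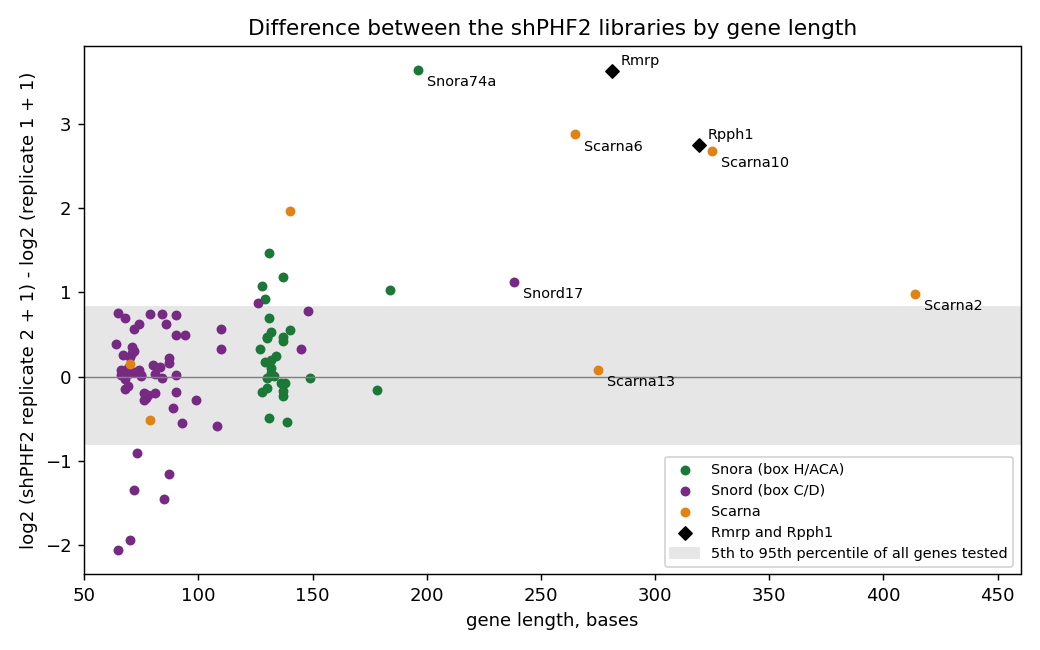
Log2 ratio of shPHF2 replicate 2 to replicate 1 (y axis) against annotated gene length in bases (x axis) for the 94 members tested, with Rmrp and Rpph1 as diamonds and the middle 90% of all genes tested in grey. Most genes of 190 bases or more lie above the grey band, Scarna13 lies within it, and most shorter genes lie within it. For genes with a mean in the 10th to 90th percentile of the members the middle 90% is wider, −1.31 to 1.47, and is not drawn. The telomerase RNA Terc (423 bases, log2 ratio 0.11) is not plotted.

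Of 3 other noncoding RNAs of at least 190 bases, chosen after their values were seen, 2 showed such a split. Rmrp, the RNA of the ribosomal RNA processing enzyme RNase MRP (281 bases), stood at 18145, 6518 and 81070, and Rpph1, the RNA of RNase P (319 bases), at 29755, 21479 and 145233. In both, replicate 2 exceeded the control and replicate 1 lay under it. The telomerase RNA Terc (423 bases), about as long as Scarna2, stood at 122, 42.5 and 45.8, with a log2 ratio of replicate 2 to replicate 1 of 0.11. Among shorter noncoding RNAs that ratio was 1.35 for Rnu11 (134 bases), 1.02 for Rnu12 (151 bases) and 0.49 for Rnu73b (71 bases). A high ratio was thus not confined to long genes. The column of replicate 2 is named in another form in the deposited table than those of the other libraries, and it held fewer reads in genes. Whether library preparation has a part in the difference between the shPHF2 libraries was not tested. The 88 shorter members gave 76 with both shPHF2 values below the control and a median log2 fold change of −0.74, so the pattern of the snoRNAs was as large without the long genes. In each of the shPHF2 libraries taken alone the median over these 88 was negative as well, at −0.85 in replicate 1 and −0.74 in replicate 2.

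Most members lie inside other genes. By position, 92 of the 104 lay within introns of a gene on the same strand, 6 overlapped an exon of the host and 6 had no host, while 6 had a gene on the opposite strand. Member and host were both tested in 85 pairs with 63 hosts. Of the 63 hosts, 61 had a negative log2 fold change, 17 were called lower by limma and 0 higher, against 7.11% and 7.22% of all genes tested. No background of genes with counts like those of the hosts was drawn, nor for the gene lists below. The median was −0.53 over hosts and −0.74 over their members. In 76 of the 85 pairs both values were negative, and in 57 the member had the lower one, with a median difference of −0.23. Taken once per host, the log2 fold changes of members and hosts had a Pearson r of 0.23 and a Spearman rho of 0.25. These describe values that share the control library.

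**Figure D5:**
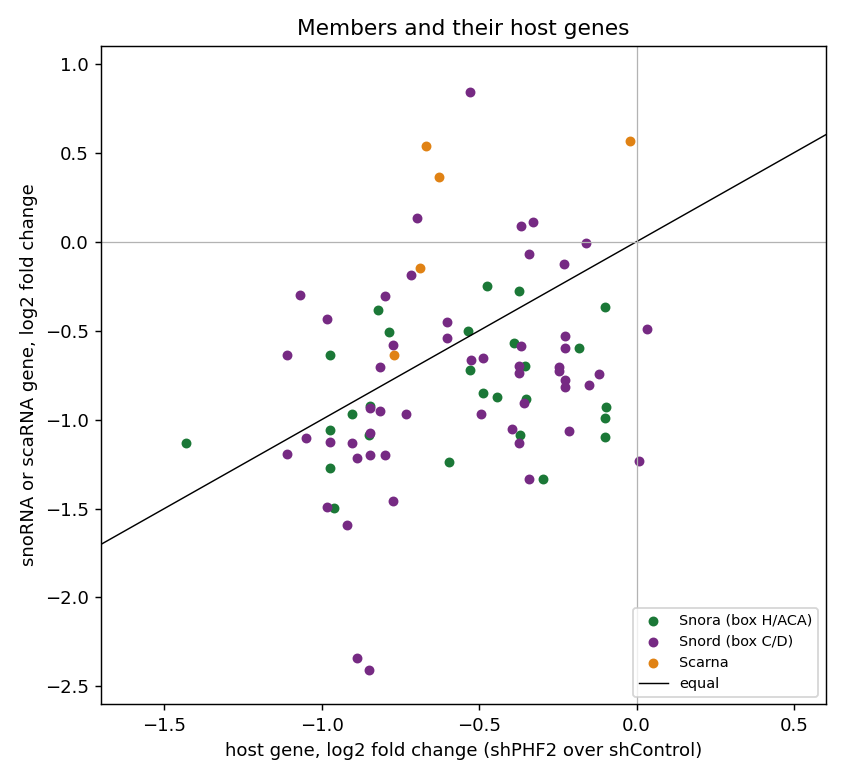
Log2 fold change (shPHF2 over shControl) of the host gene (x axis) and of the snoRNA or scaRNA gene inside it (y axis) for 85 pairs, coloured by class, with the line of equal values. Most points lie left of 0 and below 0, and 57 of the 85 lie under the line.

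Medians were negative for members of a called host and for members of other hosts. The 26 members with a host called lower had a median of −1.10, and the 59 with a host that was not called had −0.71, where the 46 hosts themselves had a median of −0.37. The 22 hosts that encode ribosomal proteins (Rpl and Rps) had a median of −0.38, with 4 called lower, and their 30 members had −0.79. Rpl13a, for example, hosts Snord32a to Snord35a, methylation guides that have also been linked to lipid stress in cells. Snord32a stood at 153.5, 83.4 and 90.4, Snord33 at 54.8, 31.7 and 31.3, Snord34 at 104.7, 66.7 and 78.4, and Snord35a at 85.7, 55.9 and 56.7. All 4 had both shPHF2 libraries under the control, with log2 fold changes from −0.81 to −0.53, and none passed the test. Rpl13a itself stood at 11769, 9310 and 10852 (−0.23, limma adjusted p = 0.47).

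Several hosts encode no protein. Snhg12, which hosts Snora16a, Snora44, Snora61 and Snord99 (−1.27 to −0.64), stood at 967, 434 and 557 (−0.97, limma adjusted p = 0.042). Gas5 stood at 12618, 5973 and 6216 (−1.05, limma adjusted p = 0.012), beside −1.10 for Snord47 within it. Snhg1 stood at 2221, 1098 and 1021 (−1.07, limma adjusted p = 0.014), while Snord22, which overlaps an exon of it, had −0.30. Of the 12 genes named Snhg or Gas5, 7 were called lower (Snhg1, Snhg4, Snhg5, Snhg7, Snhg8, Snhg12 and Gas5) and 1 higher, Snhg11, at 11.96, 83.4 and 107. The median log2 fold change of the 12 was −0.98, and over all genes tested 7.11% were called lower and 7.22% higher. Reads of unspliced host RNA that cover a snoRNA can be counted to the snoRNA gene, and their part in these values was not tested.

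Most genes of the proteins that bind snoRNAs directly fell. Dkc1, the gene of dyskerin, fell from 6160 to 1423 and 1232 (−2.22, SE 0.19, limma adjusted p = 0.0036). Both shPHF2 values lay far under the control and close to each other. Of the 4 genes of the H/ACA core, 3 were called lower (Dkc1, Nhp2 and Nop10) and 0 higher, with a list median of −0.87; Gar1 stood at 309, 227 and 183 (limma adjusted p = 0.26). Of the 4 genes of the C/D core in the table, 3 were called lower (Nop56, Nop58 and Nhp2l1) and 0 higher, with a median of −0.92. Over all genes tested, 7.11% were called lower and 7.22% higher. Fbl, the gene of fibrillarin, stood at 505, 263 and 262 (limma adjusted p = 0.061). Nop56 stood at 7133, 3921 and 3789 and hosts Snord57 and Snord110, and Nop58 stood at 6926, 3463 and 3535 and hosts Snord11 and Snord70.

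The assembly genes had 4 of 12 called lower and 0 higher, with a median of −0.40, against 7.11% lower and 7.22% higher of all genes tested. These were Ruvbl1, Ruvbl2 and Rpap3, of the R2TP chaperone complex, and Nolc1, which encodes a phosphoprotein that moves between nucleolus and Cajal body. Pih1d1, also of the R2TP complex, stood at 716, 519 and 698 and was not called (−0.25, limma adjusted p = 0.57). Of the 3 Cajal body genes (Coil, Wrap53, Smn1) and the 5 trimming genes, 0 were called in either direction, with medians of −0.42 and −0.27. Among 69 other short noncoding or microRNA genes tested, 1 was called lower (Mir17hg) and 1 higher (Mir22hg), both host transcripts of microRNAs, and the median was −0.40. Terc, which carries an H/ACA end, differed from the control by −1.44 on the log2 scale (limma adjusted p = 0.095). Rnu11 and Rnu12, RNAs of the minor spliceosome, stood at 161, 45.9 and 118 and at 111, 33.3 and 68.7. Neither passed the test (limma adjusted p = 0.24 and 0.21). In these 3 genes, chosen after their values were seen, both shPHF2 libraries lay under the control. That held for 40 of the 69, while 15 had both above it. Rn45s, the precursor of the ribosomal RNAs that snoRNAs modify, stood at 265055, 201037 and 212289 (−0.36, limma adjusted p = 0.62), in libraries from which ribosomal RNA had been removed.

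At the low end of the table, 10 members were under the minimum mean: Snora47, Snord118, Snord23, Snord38a, Snord61, Snord67, Snord90, Snord92, Scarna3b and Scarna8. Snord90 had 3 control reads and 8 shPHF2 reads, a ratio of 1.32 after division by the size factors, with a 95% counting interval of 0.316 to 7.72. Scarna3b had 1 and 8, a ratio of 3.96 (0.530 to 175.5). Neither ratio could be told from 1 at this depth.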

How the data were processed

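RNA depleted of ribosomal RNA was sequenced with a stranded kit, per the labels' protocols. HISAT2, HTSeq, DESeq2 and mm10 are named in the submitters' processing notes; their versions, the annotation, the strand setting and the handling of reads that match several copies were not given in the sources used here. For this reason genes with close copies, overlapping genes and antisense genes are uncertain. The deposited table holds a signal, read counts divided by the authors' DESeq2 size factor (1.00 for shControl, 1.20 and 0.829 for shPHF2), and, per the file headers, the authors' log2 fold change, Wald score and p-values. All values were whole multiples of 1 read (100%, tolerance 0.001), and the recovered reads served edgeR 4.0.16 and DESeq2 1.42.0 as alternatives. The 4 rows that name no gene were left out: reads on no feature (42.7%, 44.0% and 38.7% in the order shControl, replicate 1, replicate 2), of low alignment quality (17.0%, 15.9%, 20.5%), unaligned (1.18%, 1.22%, 1.78%) and ambiguous (0.461%, 0.430%, 0.434%).

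The main test was limma 3.58.1 in R 4.3.3 (two-sided, mean-variance trend) on log2(value + 1) for 14148 genes with a mean of at least 10, with Benjamini-Hochberg adjustment over these genes and a threshold of 0.05. It has 1 residual degree of freedom, from the shPHF2 libraries, and 6.94 prior ones; the spread of the single control is taken to equal theirs. The series calls the shPHF2 libraries biological replicates, and they differed beyond counting noise (chi-square over degrees of freedom 58.9, 14185 genes with at least 20 reads). The test was checked on simulated data. There it missed most of the smaller changes, and its false calls exceeded the share that the threshold allows. Fewer genes were changed there than were called in the data, so that share of false calls need not hold for these data.

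All 104 symbols matched GENCODE M21 and RefSeq; 2 symbols had 2 GENCODE genes, and 60 genes were shorter in RefSeq by over 10 bases. Hosts are genes on the same strand that contain the member. The members, lists and tests were chosen with earlier results of these data known. By rule, the text names members that passed the test, the 4 with the highest mean in each class, those with an established special role, and the largest and smallest difference between shPHF2 libraries; others were chosen after their values were seen. Alternatives changed the pseudocount, the filter, the trend, the tool, the scaling, the replicates, and the denominator or top member of a share.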

Additional observations from a re-analysis of the deposited data

How the results depend on the processing

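Over the alternatives for the counts of calls, the class medians and the summed shares, 47 values kept their direction and moved by less than the spread between the shPHF2 libraries, or by less than 1.5 times for counts. For the 17 named genes tested, 159 values kept their direction, but not always their size. Where an adjusted p was given, these values also kept their side of the threshold. None was given with a shPHF2 library left out. Scarna10 (0.54) was 1.07 with edgeR and 1.09 with DESeq2, and Snora74a (0.20) was 1.12 and 1.15. Snord17 (0.84) was 0.28 without replicate 2 and 1.40 without replicate 1, and Snora78 (−1.13) was −0.59 without replicate 1. The number of members called lower, 1, became 0 with no filter (12 at an unadjusted p under 0.05), 0 with limma without the trend (44 at that p), 2 with a minimum mean of 50 and 2 with edgeR, the pair being Snora65 and Scarna13. Snora65 had an adjusted p of 0.15 (0.145 with no filter and 0.150 without the trend), and Scarna13 of 0.049 with the minimum of 50 and 0.043 with edgeR. The number called higher was 0 under every alternative run (1 at an unadjusted p under 0.05 with DESeq2). Among these alternatives a share over all genes is given only for edgeR, with 8.06% called lower. The other counts, among them the 44 without the trend, therefore have no background and cannot be read as particular to the members. The Snord median of −0.73 was −0.70 with a pseudocount of 5, −0.71 with no filter and −0.67 with scaling to reads in genes, and ran from −0.76 to −0.74 with 1 shPHF2 library left out. The Scarna median of 0.29 was 0.08 with a minimum mean of 50, and ran from −0.62 without shPHF2 replicate 2 to 0.36 without replicate 1. The ratio of the summed Scarna share (shPHF2 mean over shControl) was 1.06, ran from 0.683 without replicate 2 to 1.45 without replicate 1, and was 1.73 without Scarna13. Without replicate 2, log2 fold changes turned to −0.80 for Scarna10, −1.62 for Snora74a and −0.072 for Snord15b (without replicate 1, 1.87, 2.03 and 0.25). Without replicate 1 they turned to 0.36 for Scarna2 and 0.14 for Snord22 (without replicate 2, −0.62 and −0.74). The cause was not tested. Leaving out a library leaves 1 against 1 and no test. Scaling to reads in genes moved the median of all genes by 0.06. No paired analysis was possible because the control has a single library, whose label carries no replicate number. Depth limits the rarer members: the median was 81 reads in the control library.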
